A study of Homo sapiens with 2 samples.

Results

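Genes of the ATF4 stress programme and of amino acid supply were followed in L-428, a Hodgkin's lymphoma (HL) cell line that grows in culture, after knock-down of DUSP5. From a list of 40 genes, those with a probe set carrying the gene's symbol as its only one were taken, and a gene with several such probe sets took the one with the highest mean signal. This gave 38 genes of the 11963 on the array. SESN2, a sestrin that restrains mTORC1, and MTHFD1L, a mitochondrial folate enzyme, had no such probe set and were not measured. RNA came from cells transfected with the vector pcDNA6.2-GW/EmGFP-miR-DUSP5, which expresses an artificial microRNA against DUSP5, and from cells transfected with pcDNA6.2-GW/EmGFP-miR-neg, the vector control, which the labels call empty. Each condition was hybridised to 1 Affymetrix HG_133A array. The time after transfection and the share of transfected cells are not given in the sources used here. With 1 array per condition there is no replicate check and no p-value, and effects of the knock-down, of the vector and of the culture cannot be told apart. The arrays measure bulk RNA, so that fewer cells expressing a gene and less RNA per cell cannot be told apart either.

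The values are linear signal intensities computed by the MAS5 algorithm, with a median of 164 on the knock-down array and 161 on the control array. All ratios are log2 of the knock-down signal over the control signal, so that a negative value means a lower signal after knock-down. The error given with a ratio is the standard deviation (SD) of log2 ratios among probe sets that share a gene and a band of brightness. It was 0.41 at mean signals of 200 to 500, 0.36 at 500 to 1000, 0.30 at 1000 to 3000 and 0.26 above 3000, and it does not cover the spread between cultures. Genes with a mean signal under 200, where this SD was 0.73 or more, are given as values only. DUSP5 itself had a signal of 368 after knock-down and 628 in control cells, a log2 ratio of -0.77 (SD 0.41). The Hodgkin cell markers TNFRSF8 (CD30; 3618 after knock-down and 1724 in control cells), IRF4 (7311 and 5241) and CCL17 (6019 and 3022) were bright on both arrays, whereas CCL22 was dim (117 and 16.9). Of 9 such markers 8 were measured, with TNFRSF8 (1.07) and CCL17 (0.99) highest and FUT4 (CD15; -1.25) and BATF3 (-0.37) lowest. The part of these differences in the results was not tested. None of 12 listed T cell and monocyte markers reached a mean signal of 200, the highest having 108.

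ATF4 is a transcription factor of the bZIP class whose translation increases when the initiation factor eIF2 is phosphorylated by one of several stress kinases. It acts with partners such as the C/EBP proteins on genes that raise the supply of amino acids, and it also induces factors that later dampen the response or promote cell death. The pathway is known for its response to shortage of amino acids and to stress of the endoplasmic reticulum, and many proliferating tumor cells use its targets for the synthesis of asparagine, serine and one-carbon units.

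Most of these genes had lower signals after knock-down of DUSP5. Of the 38 genes, 33 reached a mean signal of 200, and in all 33 both signals were above this value. Of the 33, 15 were at least 1.5-fold lower (45.5%) and none was 1.5-fold higher, against 19.0% and 15.6% of all 6301 measured genes. At least 2-fold lower were 7 of them (21.2%), against 7.30% of all measured genes, and none was 2-fold higher, against 4.38%. The genes were chosen with earlier results of these data known, so these shares are no independent support. The sign was negative for 29 genes and positive for 4, against 3125 negative and 3176 positive among all 6301 measured genes. The median log2 ratio was -0.48 (0.01 for all measured genes). The difference exceeded the SD between probe sets in 24 of the 33 genes, downwards in 23 and, without rescaling, upwards in 1, MTHFD2. The share of all measured genes past this SD was not computed, so these counts have no background beside them. The roles differed in their medians, but their ranges overlapped. Of the 13 stress regulators, 10 had a ratio no lower than that of the lowest transporter. The median was -0.92 for 13 measured stress regulators, -0.44 for 9 amino acid transporters, -0.56 for 5 other amino acid enzymes and 0.02 for 6 enzymes of serine and one-carbon metabolism. The order of the transporters and the other enzymes depends on the scaling. Their medians were -0.63 and -0.49 after quantile normalization, and -0.62 and -0.51 with a signal-dependent trend subtracted. No test of these differences is possible with 1 array per condition.

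**Figure D1:**
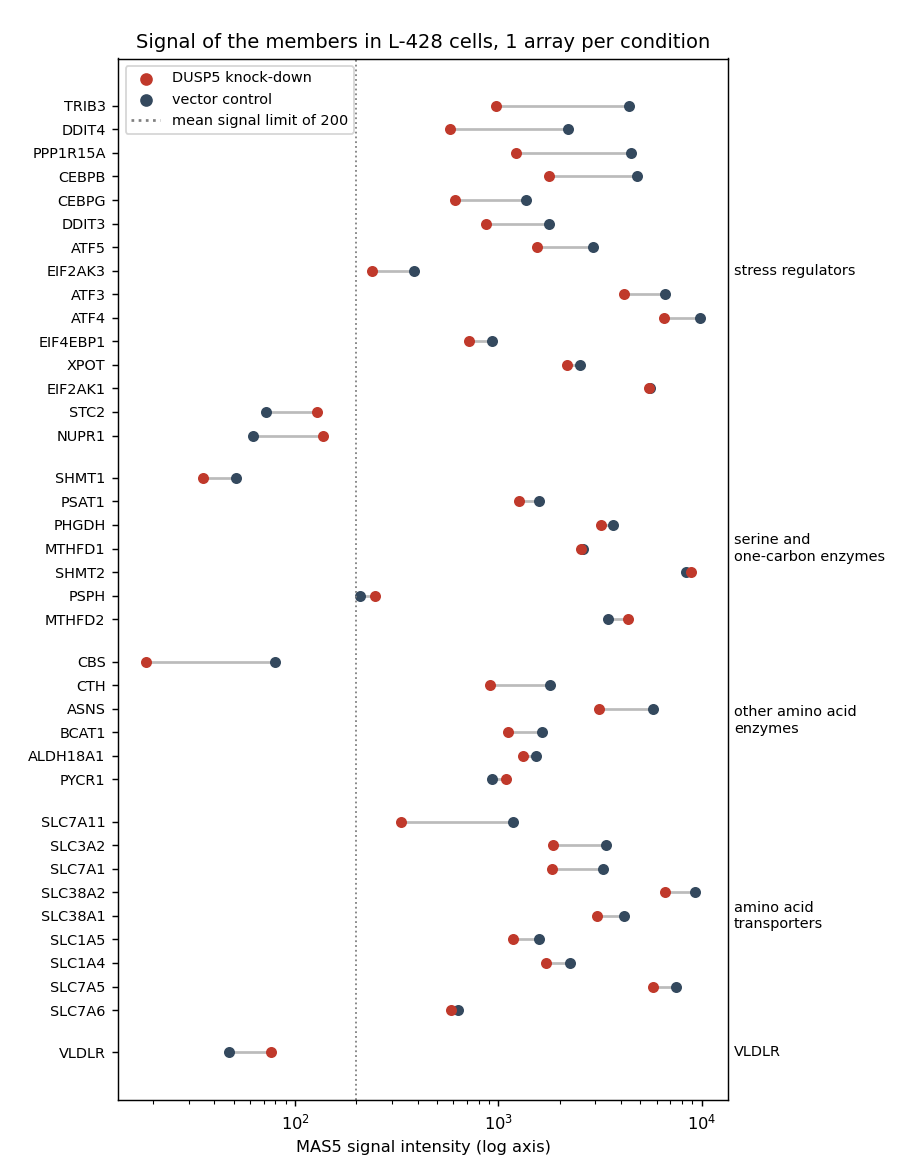
Signal intensity (log axis) of the 38 genes on the knock-down array (red) and on the control array (dark blue), 1 array each, grouped by role and ordered by log2 ratio within a role. The dotted line marks a signal of 200. The red point lies clearly to the left of the dark one for TRIB3, DDIT4, PPP1R15A and SLC7A11, and the points of EIF2AK1 and MTHFD1 nearly coincide.

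The 6 measured transcription factors were all at least 1.5-fold lower after knock-down, against 19.0% of all measured genes. ATF4, the central activator, had a signal of 6530 after knock-down and 9843 in control cells, the highest control signal of the genes studied here. Its ratio of -0.59 (SD 0.26) lies just inside the 1.5-fold rule, and it was -0.91 after quantile normalization and -0.88 with a signal-dependent trend subtracted. ATF3, a bZIP factor induced downstream of ATF4, had 4146 after knock-down and 6637 in control cells (ratio -0.68, SD 0.26). ATF5, a related factor that is also controlled at translation, had 1548 after knock-down and 2921 in control cells at its brightest probe set (-0.92, SD 0.30). A second ATF5 probe set was lower still, with 322 and 948 (-1.56, SD 0.36). Thus the ATF5 signal was about 53.0% of control at the first and 33.9% at the second. DDIT3 (CHOP), which promotes cell death in prolonged stress, had 864 after knock-down and 1777 in control cells (-1.04, SD 0.30). CEBPG, a C/EBP protein that pairs with ATF4, had 610 after knock-down and 1368 in control cells (-1.17, SD 0.36). CEBPB, which also pairs with ATF4 and is a target of it, showed the largest difference of the 6, with 1769 after knock-down and 4827 in control cells (-1.45, SD 0.26). The ratios of CEBPB and CEBPG were thus farther from 0 than that of ATF4 itself, by more than the SD. For CEBPG this depends on the scaling. Its ratio differed from that of ATF4 by less than the SD after quantile normalization (-1.07, against -0.91 for ATF4). The same held with the trend subtracted (-1.10, against -0.88). The seventh factor, the stress-induced chromatin protein NUPR1, was dim, with 137 after knock-down and 61.7 in control cells. Its ratio of 1.15 is smaller than the SD of 1.19 at this signal.

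Among the kinases and the phosphatase subunit that set the phosphorylation of eIF2, the values ranged from nearly equal to strongly lower. PPP1R15A (GADD34), an ATF4-pathway target that directs a phosphatase to eIF2 and so ends the response, had 1221 after knock-down and 4485 in control cells (-1.88, SD 0.30). Its second probe set had 641 and 3996 (-2.64, SD 0.30), the lowest ratio of any probe set of the 33 measured genes. EIF2AK3 (PERK), the kinase of the endoplasmic reticulum, had 239 after knock-down and 386 in control cells (-0.69, SD 0.41), signals close to the limit of 200. EIF2AK1 (HRI), the kinase that responds to heme shortage, did not differ beyond the SD, with 5487 after knock-down and 5572 in control cells (-0.02, SD 0.26) and a ratio of -0.17 at its other probe set.

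At the brightest probe set of each measured gene, the stress effectors TRIB3 and DDIT4 had the lowest ratios of the 33, and the other effectors differed less. TRIB3, a pseudokinase induced by ATF4 and DDIT3 that binds ATF4 in turn, had a signal of 972 after knock-down and 4378 in control cells. This is 22.2% of control, or a ratio of -2.17 (SD 0.30). DDIT4 (REDD1), an inhibitor of mTORC1, had 579 after knock-down and 2187 in control cells, or 26.5% of control (-1.92, SD 0.30). EIF4EBP1, the repressor of cap-dependent translation that mTORC1 inactivates, had 716 after knock-down and 932 in control cells (-0.38, SD 0.36). XPOT, the export receptor for tRNA, had 2171 after knock-down and 2510 in control cells (-0.21, SD 0.30), within the SD. The secreted glycoprotein STC2 was dim, with 128 after knock-down and 72.1 in control cells at the brighter probe set (0.83, SD 0.73). Of the 13 measured stress regulators, 10 were thus at least 1.5-fold lower, against 19.0% of all measured genes. The remaining 3 were EIF4EBP1, XPOT and EIF2AK1.

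**Figure D2:**
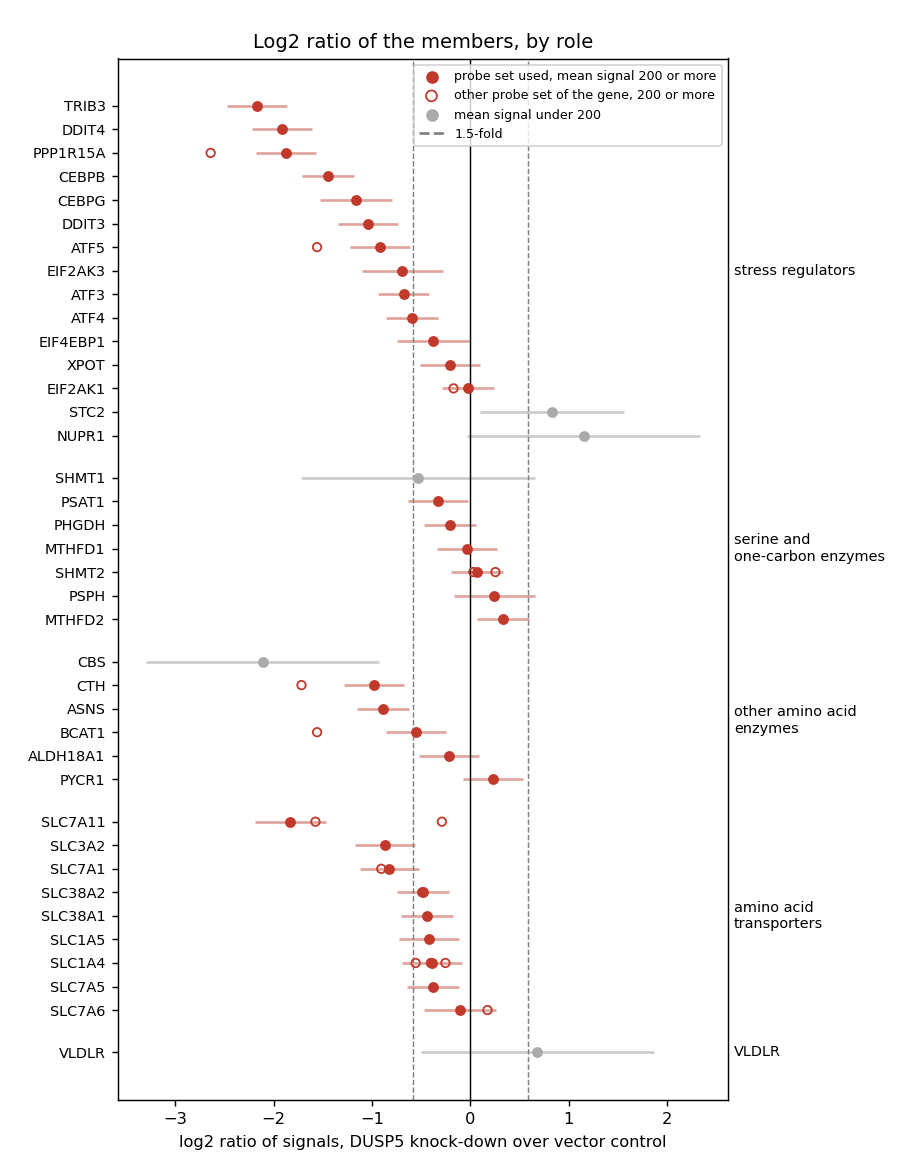
Log2 ratio of the signals (knock-down over control) of the 38 genes by role, with 1 array per condition. Filled points are the probe set used for the gene with the SD between probe sets as bars, open points are further probe sets whose mean signal reached 200, grey points have a mean signal under 200, and dashed lines mark 1.5-fold. Among filled points of measured genes TRIB3 lies farthest to the left at -2.17, the open point of PPP1R15A lies at -2.64, and the measured serine and one-carbon enzymes lie between -0.33 and 0.33.

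The enzymes that make serine from glycolytic intermediates and pass its carbon to folate stayed close to equal signals. PHGDH, the first enzyme of serine synthesis, had 3190 after knock-down and 3680 in control cells (-0.21, SD 0.26). PSAT1, the aminotransferase of the second step, had 1262 after knock-down and 1589 in control cells (-0.33, SD 0.30), the lowest ratio of the 6. PSPH, the phosphatase of the last step, had 248 after knock-down and 209 in control cells (0.24, SD 0.41), but its dimmer probe set went the other way (-0.30, SD 0.73). All steps of serine synthesis were thus detected on both arrays without a difference of 1.5-fold. SHMT2, the mitochondrial enzyme that splits serine, was among the brightest genes with 8814 after knock-down and 8391 in control cells (0.07, SD 0.26), and its other probe sets had ratios of 0.03 and 0.26. After quantile normalization the SHMT2 ratio was -0.26 and after subtraction of a signal-dependent trend it was -0.24, so that its sign depends on the scaling. MTHFD1, the cytosolic folate enzyme, had 2541 after knock-down and 2603 in control cells (-0.03, SD 0.30). MTHFD2, its mitochondrial counterpart, had 4356 after knock-down and 3458 in control cells (0.33, SD 0.26), and was the only gene of the 33 that was higher by more than the SD. This holds without rescaling only, since its ratio was 0.25 after quantile normalization and 0.21 after centring on the median. SHMT1, the cytosolic form of SHMT2, was dim (35.3 after knock-down and 51.1 in control cells). None of the 6 measured enzymes was 1.5-fold different in either direction, against 19.0% lower and 15.6% higher among all measured genes. PHGDH, PSAT1, SHMT2 and MTHFD2 are known targets of ATF4.

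The other enzymes of amino acid metabolism differed among themselves. ASNS, asparagine synthetase and a classical ATF4 target, had 3126 after knock-down and 5784 in control cells (-0.89, SD 0.26). CTH, which makes cysteine from cystathionine, had 914 after knock-down and 1801 in control cells (-0.98, SD 0.30), and 315 and 1035 at its second probe set (-1.72, SD 0.36). BCAT1, the cytosolic aminotransferase of branched-chain amino acids, had 1117 after knock-down and 1641 in control cells (-0.56, SD 0.30), just outside the 1.5-fold rule. At the other BCAT1 probe set the signals were 493 and 1451 (-1.56, SD 0.36), so that the gene is well past 1.5-fold there. The proline synthesis enzymes ALDH18A1 and PYCR1 differed by less than the SD. ALDH18A1 had 1323 after knock-down and 1537 in control cells (-0.22, SD 0.30), and PYCR1 had 1086 and 928 (0.23, SD 0.30). CBS, the enzyme before CTH in the same pathway, was dim, with 18.5 after knock-down and 79.7 in control cells (-2.11, SD 1.19).

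All 9 amino acid transporters had negative ratios at the probe set used, against 3125 of all 6301 measured genes. Of the 9, 3 were at least 1.5-fold lower, against 19.0% of all measured genes. SLC7A11, the light chain of the cystine and glutamate exchanger, was lowest, with 331 after knock-down and 1178 in control cells (-1.83, SD 0.36). Its second probe set gave 284 and 845 (-1.58, SD 0.36), whereas the third and dimmest of them differed less, with 216 and 264 (-0.29, SD 0.41). SLC3A2 (CD98), the heavy chain that SLC7A11 and SLC7A5 both need to reach the membrane, had 1862 after knock-down and 3394 in control cells (-0.87, SD 0.30). SLC7A1, the carrier of arginine and lysine, had 1844 after knock-down and 3261 in control cells (-0.82, SD 0.30), and 406 and 762 at its second probe set (-0.91, SD 0.36). With the mean of its 5 probe sets, 3 of them dim, the ratio was -0.55, short of 1.5-fold. The other carriers were lower by less than 1.5-fold. SLC38A2, the sodium-coupled carrier of small neutral amino acids, had 6636 after knock-down and 9282 in control cells (-0.48), and -0.49 at its other probe set (SD 0.26 for both). It passed 1.5-fold after quantile normalization, with -0.79. SLC38A1, the related glutamine carrier, had 3050 after knock-down and 4148 in control cells (-0.44, SD 0.26). Both of these sodium-coupled carriers were bright and lower by more than the SD. For SLC1A5, the glutamine exchanger, the signals were 1177 after knock-down and 1577 in control cells (-0.42, SD 0.30). SLC1A4, a carrier of alanine, serine and cysteine, had 1706 after knock-down and 2238 in control cells (-0.39, SD 0.30), with ratios from -0.56 to -0.25 over its 4 probe sets. SLC7A5 (LAT1), the leucine carrier, had 5740 after knock-down and 7451 in control cells (-0.38, SD 0.26). It too passed 1.5-fold after quantile normalization, with -0.63, and with the trend subtracted, with -0.62. Each of these 5 ratios exceeded the SD. SLC7A6 did not differ beyond it, with 584 after knock-down and 629 in control cells (-0.11, SD 0.36), and its other probe set above a mean signal of 200 was on the other side (0.17). VLDLR, a lipoprotein receptor listed as an ATF4 target outside amino acid metabolism, was dim (76.1 after knock-down and 47.5 in control cells).

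Set side by side, 8 of the 9 transporters, 11 of the 13 stress regulators and 3 of the 5 other enzymes had a lower ratio than PSAT1, the lowest of the serine and one-carbon enzymes. This cut-off was taken from the same data, and the share of all measured genes below it was not computed. The values were also read against all genes of similar brightness. Above a mean signal of 3000, the 11 genes of the set had a median ratio of -0.44, whereas the 667 genes in all had a median of 0.21. Of these 11, 10 lay below the median of all genes in that band. Between 1000 and 3000, the median was -0.69 for the 16 genes of the set and -0.04 for all 1688 genes. Between 500 and 1000 it was -0.77 for 4 and -0.04 for 1682. Between 200 and 500 it was -0.22 for 2 and 0.01 for 2264, and 1 of the 2 lay below the median of all. Where the mean signal reached 1000, 12 of the 27 in the set were at least 1.5-fold lower and none was higher, against 17.1% and 17.6% of all 2355 such genes. Of 11 genes with several probe sets above a mean signal of 200, 10 had the same sign at all of them, the exception being SLC7A6. The same share among all measured genes was not computed. Dimmer probe sets of the 11 were left out of this count. Among those, SLC7A1 had ratios of 0.39, -0.59 and -0.84, ATF5 had 0.25 and SLC7A6 had 0.37.

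**Figure D3:**
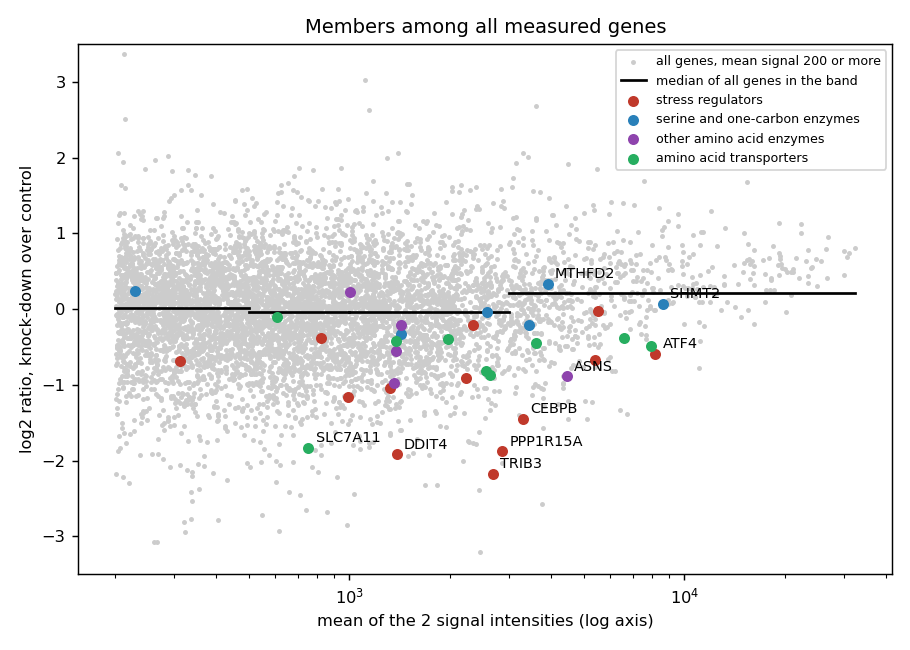
Log2 ratio of knock-down over control signal, with 1 array per condition, against the mean of both signal intensities (log axis) for 6301 measured genes in grey and the 33 measured genes of the set in the colour of their role. Black lines are the median of all genes in a band of signal, and 2 genes lie outside the vertical axis. Above a mean signal of 3000 the line is at 0.21, and 10 of the 11 coloured points lie below it.

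Promoter sequences were searched for the core of the C/EBP-ATF response element, TGATGNAA on either strand, through which ATF4 dimers with C/EBP proteins act. The RefSeq windows (GRCh38.p14) run from 250 bases before to 50 after a start site, and 33 of the 40 listed genes had at least 1. The core was present in a window of 10 of these 33 genes (30.3%), against 1217 of 27305 genes with a window (4.46%). By windows it was 12 of 58 (20.7%) against 3.62% of 35116, with 3 of the 12 being overlapping windows of MTHFD1L. The genes were listed for what is known of them as ATF4 targets, so this share describes the list. Among the measured genes of the set, 5 of 9 with the core were at least 1.5-fold lower (median -0.68), as were 9 of 18 without it (median -0.54). The 9 with it were ATF3, CEBPG, ASNS, BCAT1, SLC1A4, SLC1A5, SLC38A1, SLC3A2 and SLC7A1. Of all 160 measured genes with the core in a window, 39 (24.4%) were at least 1.5-fold lower, against 19.0% of all 6301 measured genes. The 160 come from the 5334 measured genes with a window, for which the share lower was not computed. The median of the 160 was -0.11, against 0.02 for measured genes whose windows lacked the core. The 160 include the 9 of the set. The cAMP response element TGACGTCA, which has the same letters on both strands and which ATF and CREB dimers bind, was in a window of 1 gene of the set, PPP1R15A (3.03% of 33 genes, against 2.25% of all), with its first base 58 bases before the start site. The windows of TRIB3, DDIT4 and CEBPB held neither motif, which says only that these letters are not in these windows.

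The 3 lowest and the 2 highest of the bright genes with the core (mean signal of at least 500) are shown here as sequence, because they place the same letters beside different ratios. Capitals mark the core or, on the opposite strand, its reverse complement. The windows lie at chr19:33373863-33374162, plus strand (CEBPG), chr7:97872359-97872658, minus strand (ASNS), chr11:62881449-62881748, plus strand (SLC3A2), chr19:46784765-46785064, minus strand (SLC1A5) and chr2:64989149-64989448, plus strand (SLC1A4).
CEBPG: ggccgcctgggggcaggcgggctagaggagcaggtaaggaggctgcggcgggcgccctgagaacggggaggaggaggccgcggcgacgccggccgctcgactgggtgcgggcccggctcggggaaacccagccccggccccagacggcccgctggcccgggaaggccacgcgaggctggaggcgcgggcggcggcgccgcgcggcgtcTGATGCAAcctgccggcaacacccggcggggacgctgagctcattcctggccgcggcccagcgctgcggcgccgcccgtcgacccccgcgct
ASNS: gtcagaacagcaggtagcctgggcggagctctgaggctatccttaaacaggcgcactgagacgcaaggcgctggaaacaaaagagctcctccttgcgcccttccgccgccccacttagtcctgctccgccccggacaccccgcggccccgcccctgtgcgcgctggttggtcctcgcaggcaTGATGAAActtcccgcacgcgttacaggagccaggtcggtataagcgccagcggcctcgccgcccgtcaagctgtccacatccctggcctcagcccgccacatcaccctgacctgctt
SLC3A2: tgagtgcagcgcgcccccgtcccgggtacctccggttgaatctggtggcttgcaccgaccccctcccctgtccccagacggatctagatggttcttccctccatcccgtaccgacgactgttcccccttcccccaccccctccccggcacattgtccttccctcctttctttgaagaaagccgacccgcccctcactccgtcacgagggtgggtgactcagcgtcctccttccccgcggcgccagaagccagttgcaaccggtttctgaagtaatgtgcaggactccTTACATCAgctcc
SLC1A5: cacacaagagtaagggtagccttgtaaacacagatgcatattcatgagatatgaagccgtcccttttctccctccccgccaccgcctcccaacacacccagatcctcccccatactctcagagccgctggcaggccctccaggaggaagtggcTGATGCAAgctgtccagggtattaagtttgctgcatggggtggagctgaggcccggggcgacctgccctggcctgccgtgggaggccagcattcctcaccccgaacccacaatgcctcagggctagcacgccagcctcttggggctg
SLC1A4: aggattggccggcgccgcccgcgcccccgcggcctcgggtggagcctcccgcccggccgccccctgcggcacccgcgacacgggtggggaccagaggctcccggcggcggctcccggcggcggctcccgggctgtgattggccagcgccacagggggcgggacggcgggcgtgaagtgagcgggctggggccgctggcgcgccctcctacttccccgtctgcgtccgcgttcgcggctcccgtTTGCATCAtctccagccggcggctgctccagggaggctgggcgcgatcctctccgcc

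In CEBPG (ratio -1.17) the first base of TGATGCAA lies 42 bases before the start site, and in SLC1A5 (-0.42) the same 8 letters begin 97 bases before it. ASNS (-0.89) has TGATGAAA 68 bases before the start site. SLC3A2 (-0.87) has TTACATCA, the reverse strand match, at base 38 after the start site, and SLC1A4 (-0.39) has TTGCATCA 7 bases before it. Identical letters thus stand beside a ratio of more than 2-fold in CEBPG and of less than 1.5-fold in SLC1A5.

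Genes that work beside these were taken from lists of neighbouring functions and counted in the same way, beside 19.0% lower and 15.6% higher among all genes. These lists too were written with earlier results of these data known. The eIF2 complex, its exchange factor eIF2B and regulators of eIF2 were spread to both sides, 5 with a negative and 6 with a positive ratio. Of 11 measured, 4 were higher by 1.5-fold or more and 1 was lower, the median being 0.30. The lower one was EIF2AK2 (PKR), the kinase activated by double-stranded RNA, with 1506 after knock-down and 3336 in control cells (-1.15), followed by the eIF2 subunit EIF2S1 (-0.51). No other eIF2 kinase was measured in this list. Highest were the adaptor NCK1 (0.81) and EIF2B3 (0.77). Of 7 other sensors and regulators of endoplasmic reticulum stress, 2 were lower and none was higher (median -0.44), namely MBTPS2, a protease that releases ATF6 from the membrane (-1.51), and ATF6 itself (-0.96). The chaperone HSPA5 (0.28) was highest, with 3931 after knock-down and 3234 in control cells, and CREB3 (-0.19) was next. Of 10 other bZIP factors, 3 were lower and none was higher (median -0.46), with MAFG (-1.92) and NFE2L1 (-0.86) lowest and CREB1 (0.40) and BATF (0.25) highest.

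mTORC1, which senses amino acids and is restrained by DDIT4, had 5 of 17 measured components and regulators lower by 1.5-fold or more and none higher (median -0.14). The GTPase RRAGC (429 after knock-down and 860 in control cells) and EIF4EBP2 (-0.97), a relative of EIF4EBP1, were lowest, and NPRL3 (0.56) and LAMTOR2 (0.45) were highest. The other enzymes of folate and methionine metabolism went the other way from the stress regulators. Of 13 measured, 6 were higher by 1.5-fold or more and 1 was lower, the median being 0.39. ATIC, which closes the purine ring, had 7071 after knock-down and 2941 in control cells (1.27), and AHCY, which clears S-adenosylhomocysteine, had 1688 and 714 (1.24). MTRR, the reductase of methionine synthase, had 511 after knock-down and 1340 in control cells (-1.39), and MTR, methionine synthase, had -0.15. Other enzymes of amino acid metabolism were split, with 4 of 15 higher and 2 lower (median -0.13). The spermidine synthase SRM (1.29) and the kinase BCKDK (0.94) were highest, and the arginase ARG2 (-1.26) and OAT (-0.60) were lowest. Of the other amino acid transporters, 9 of 25 were measured, 3 of them lower and none higher (median -0.28), with SLC7A8 (-1.11) and SLC7A7 (-0.93) lowest and SLC25A13 (0.47) and SLC38A7 (0.37) highest.

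Of 22 further genes listed as ATF4 or stress targets, 16 were measured, of which 10 were at least 1.5-fold lower and none was higher (median -0.63). TXNIP, which restrains glucose uptake, had 477 after knock-down and 4419 in control cells (-3.21), and VEGFA, an angiogenic factor, had 219 and 1203 (-2.45). CARS1 (0.34) and SERP1 (0.18) were highest. This list was written when part of these ratios was known, so its count is no independent support. The cytosolic aminoacyl-tRNA synthetases, of which several are also ATF4 targets, were spread to both sides. Of 16 measured, 6 were at least 1.5-fold higher and 2 were lower (median 0.09), from WARS1 (-1.56) and AARS1 (-0.82) to FARSA (1.04) and VARS1 (1.34).

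**Figure D4:**
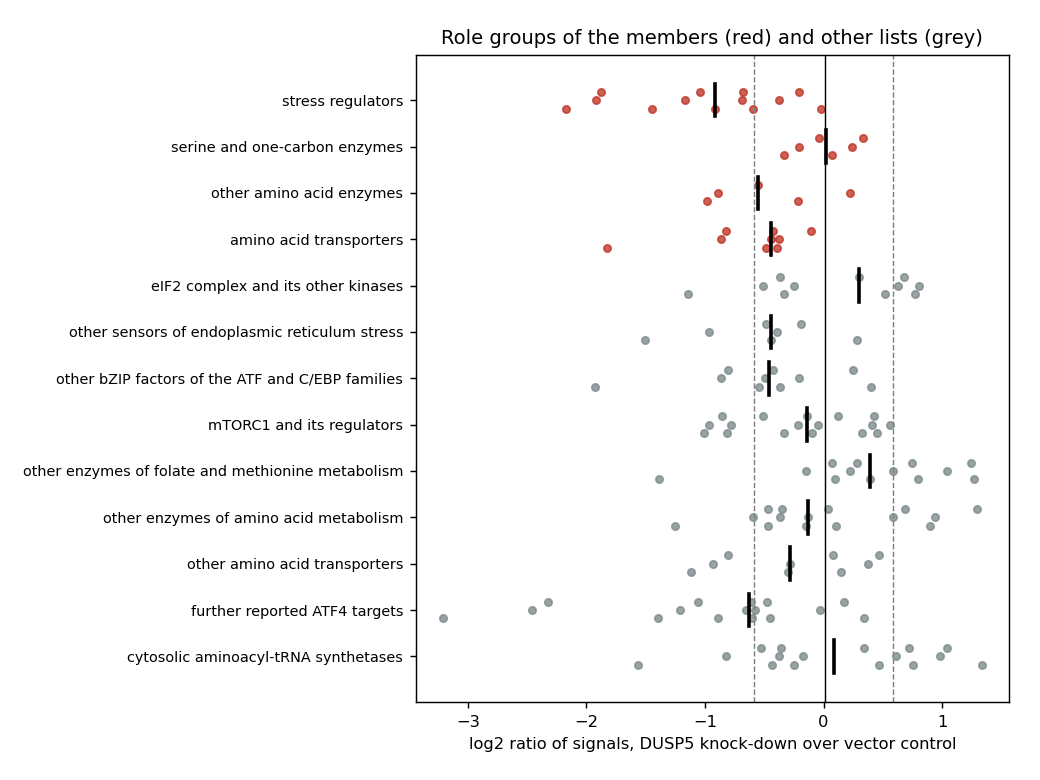
Log2 ratio of knock-down over control signal for measured genes, 1 array per condition, in the 4 roles (red) and of 9 other lists (grey), where each point is a gene, black bars are medians, dashed lines mark 1.5-fold and the thin line is the median of all measured genes. Points are spread vertically for display only. The medians run from -0.92 for the stress regulators to 0.39 for other enzymes of folate and methionine metabolism.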

How the data were processed

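RNA of L-428 cells was measured on 2 Affymetrix HG_133A arrays, 1 per condition. The authors ran MAS5 within Expression Console, with every array scaled to a common target, so the deposited numbers are signal intensities on a linear scale. Detection calls were not used here. Gene symbols came from the platform annotation, with current names from RefSeq (19053 of 19065 probe sets with 1 symbol matched, none with a changed symbol). Control probe sets and those with several symbols, among them 1 of SHMT1 and 1 of PHGDH, were left out. The log2 ratio of knock-down over control was computed per probe set with no further normalization, and a gene took its brightest probe set. The SD between probe sets came from pairs of the same gene within a band of mean signal. Counts took genes whose mean signal reached 200 and a 1.5-fold or 2-fold rule. All listed genes with a probe set are named. Of each other list, the 2 highest and 2 lowest measured genes are named. The printed promoters follow the same kind of rule. The members and lists were chosen with earlier results of these data known.

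Alternatives were quantile normalization, centring on the median, subtraction of a lowess fit (span 0.3), an offset of 32 on both signals, no limit on dim genes, a limit of 500, averaging a gene's probe sets, use of neither _s_at nor _x_at probe sets, and 2-fold in place of 1.5-fold. Steps were tested on simulated data. The number of arrays limits the precision. The software was Python 3.11.15 with matplotlib 3.10.9, statsmodels 0.14.6, scipy 1.17.1, pandas 2.3.3 and numpy 2.4.6.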

Additional observations from a re-analysis of the deposited data

How the results depend on the processing

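No setting turned the sign of any of the 15 genes at least 1.5-fold lower. The count of lower genes was 17 with quantile normalization (16.91% of all measured genes), with centring on the median (24.12%) and with the lowess fit subtracted (18.12%). It was 15 with 32 added (17.71%) and with averaged probe sets (17.81%), and 14 at a mean signal of at least 500 (18.85%). It was 11 of 18 without _s_at and _x_at probe sets (21.34%), and 7 by construction at 2-fold (7.3%). With no filter it was 16, against 18.66% of all genes. In that setting 3 dim genes were 1.5-fold higher (NUPR1, STC2 and VLDLR), against 24.59% of all genes. None of the set was 1.5-fold higher in the other settings. The median of the other amino acid enzymes was -0.89 with the mean of all probe sets and -1.27 without _s_at and _x_at probe sets (2 genes left), and that of the transporters was -0.91 there (3 genes left). The other 45 medians and counts moved by less than the SD between probe sets at that brightness or, for counts, stayed within 1.5 times. The median of the serine and one-carbon enzymes was -0.16 to 0.11 over the settings, so it has no settled sign. Of 211 ratios of single genes computed with other settings, 199 stayed within the SD of the value reported, and the cause of the other 12 was not tested. Part of the 199 could not move. A gene with a single probe set keeps its ratio when probe sets are averaged. So does a gene whose probe set stays in use without _s_at and _x_at probe sets. Centring on the median shifted every ratio by -0.12, less than the smallest SD of 0.26, so it could move no ratio or median past the SD. No paired analysis was possible because there is a single array for each condition. Low signal over background limits NUPR1, STC2, SHMT1, CBS, VLDLR and, near the limit, PSPH and EIF2AK3.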
